A study of Drosophila melanogaster with 52 samples.

Results

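In the Drosophila eye disc, a wave called the morphogenetic furrow sweeps across the epithelium during late larval life, and behind it each unit eye gains its photoreceptors one after another. The R8 cell is founded first, then the pairs R2/R5, R3/R4 and R1/R6 join, and R7 comes last, when the receptor Sevenless reads the ligand Boss on its R8 neighbour. The genes described here are 9 that act in this sequence: ato, sens and boss of R8, gl and chp of photoreceptors in general, ro of R2/R5, B-H1 and B-H2 of R1/R6, and sev of R7. They were chosen by symbol from a table of 16502 genes, and all 9 were found. Membership rests on the symbol alone, with no threshold on a measured value.

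Poly(A) RNA of imaginal discs and brains from larvae in the third instar had been sequenced, with 3 wild-type libraries (WT), 4 libraries of Spps mutants (SppsKO) and 3 of pho mutants (PhoKO). Spps and Pho are DNA-binding proteins that recruit Polycomb group complexes, which keep developmental genes silent. Per the series' design text, both maternal and zygotic product is missing in the Spps mutants, but zygotic product alone in the pho mutants, whose maternal product the genotype leaves in place. Fly stocks were kept at 25 °C. The labels name no allele and no age beyond the instar. They do not say whether libraries of a group came from separate dissections, and the spread behind each p-value may therefore be technical. The labels of the other 42 samples are of ChIP-Seq, which was not analysed here.

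The values are FPKM (fragments scaled by transcript length and by the number mapped), which are corrected for length and can be compared between genes. Total depth is unknown. Relative depth, read from the step size of values under 0.3 FPKM, lay between 59.5% and 108% of the first WT library, with WT 3 and PhoKO 1 at the low end. Spps was at 7.67% of its WT level in SppsKO and pho at 29.3% of its WT level in PhoKO. A gene was tested when it reached 1 FPKM in at least 3 libraries, which 9748 genes did. Of the 9 photoreceptor genes 8 passed, and boss, which reached 1 FPKM in PhoKO 1 alone, did not. Differences are in log2(FPKM + 1), so that changes of genes near or under 1 FPKM come out smaller than they are, and a gene was called at a limma adjusted p under 0.05 over all tested genes.

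In WT the order of FPKM levels ran from ato through gl, sev, B-H1, B-H2, chp, sens and ro to boss. The mean was 17.3 ± 0.365 FPKM for ato (SD, n = 3) and 0.447 ± 0.126 FPKM for boss (SD, n = 3). The ranges of neighbours in this order overlapped for sev and B-H1, for B-H1 and B-H2, and for chp and sens. Compared within each WT library, B-H1 was always above B-H2 and chp always above sens, while sev was below B-H1 in WT 2. The mean order was the same in both mutants. These are modest levels in a mixture of all discs and brains: 46.1% of tested genes had a lower WT level than ato, 39.6% than gl and 13.8% than ro. Within groups the coefficient of variation had a median over the 9 genes of 7.27% in WT, 3.98% in SppsKO and 7.67% in PhoKO, and boss in WT had the widest spread of all at 28.1%.

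**Figure D1:**
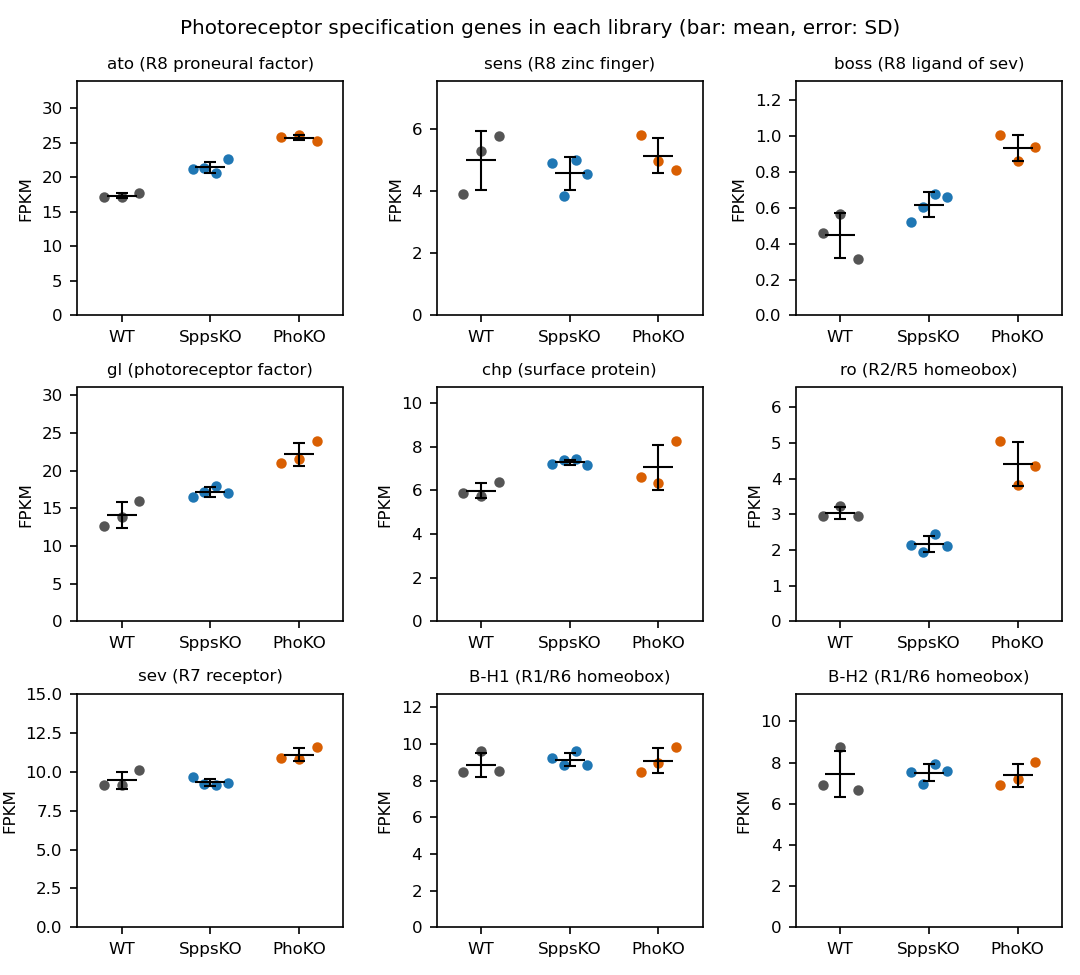
FPKM of each of the 9 genes in every library (points), with the mean (horizontal line) and SD (error) of 3 WT, 4 SppsKO and 3 PhoKO libraries and every axis starting at 0. The 3 groups are apart for ato, gl and ro, and overlap for sens, B-H1 and B-H2.

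Across the 9 genes, loss of Pho went with higher levels of several and loss of Spps with an uneven pattern. In PhoKO versus WT limma called ato, gl, ro and sev higher and 0 of the 8 tested genes lower, where 4.59% of all tested genes were called higher and 5.08% lower (9.66% in either direction). In SppsKO versus WT it called ato higher and ro lower, where 3.92% of all tested genes were called higher and 4.26% lower (8.18% in either direction). In PhoKO versus SppsKO the genes called were again ato, gl, ro and sev, each higher in PhoKO, where 7.24% of all tested genes were called higher and 7.12% lower (14.4% in either direction). The median difference over the 8 tested genes was 0.20 in PhoKO versus WT and 0.03 in SppsKO versus WT, beside medians of 0.00 over all tested genes in both. At an unadjusted p under 0.05 limma had 5 of the 8 in PhoKO versus WT, beside 23.7% of all tested genes, and 4 of the 8 in SppsKO versus WT, beside 24.2%. Between the mutants it had 4 of the 8, beside 30.8%. Both comparisons with WT use the same 3 WT libraries. In these bulk samples, a change in the number of cells that express a gene and a change in its RNA per cell cannot be told apart.

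Groups that did not overlap gave a similar picture. In PhoKO versus WT every PhoKO library was above every WT library for ato, gl, ro, sev and boss, 5 of the 9 genes, and 0 of the 9 lay below without overlap; over all tested genes these shares were 13.7% and 14.5%. In SppsKO versus WT the libraries were apart and higher for ato, gl and chp, and apart and lower for ro, beside 12.2% and 11.8% of all tested genes. PhoKO stood above SppsKO without overlap for ato, gl, ro, sev and boss, and 0 of the 9 genes stood below, beside 14.7% and 16.7% of all tested genes. Both PhoKO counts include boss, which was not tested, while the shares are over tested genes alone.

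**Figure D2:**
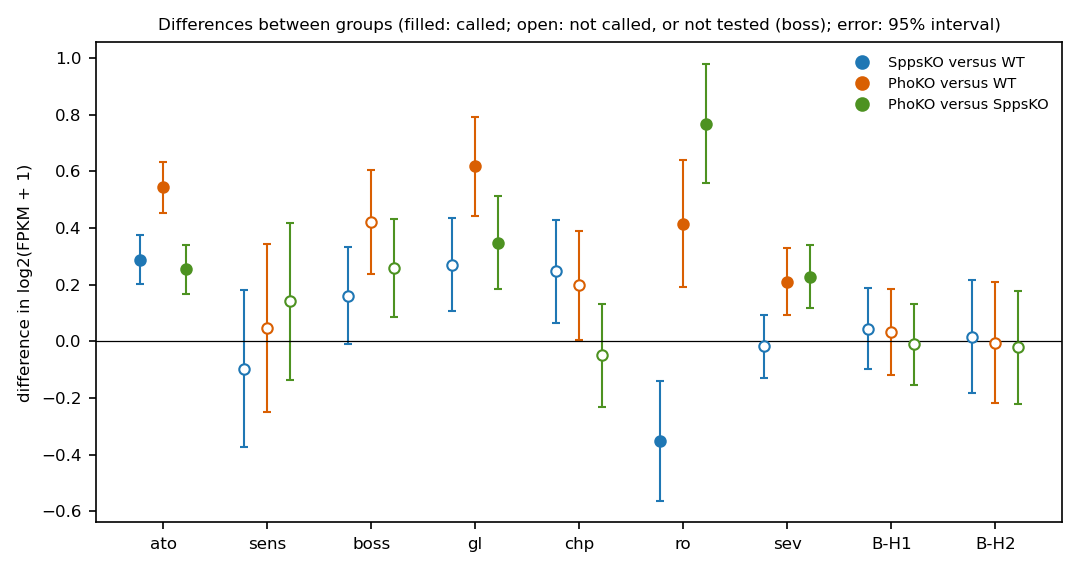
Difference in log2(FPKM + 1) of each gene in the 3 comparisons, with its 95% interval from the limma fit. Filled points were called, and open points were not called, or, for boss, not tested, with the interval from a fit without a filter. For ro the SppsKO point lies at -0.35 and the PhoKO point at 0.42, on opposite sides of 0.

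Among the R8 genes, ato, the proneural transcription factor that founds R8 and with it each unit eye, rose in both mutants. It was at 17.2, 17.1 and 17.8 FPKM in the WT libraries, at 21.2, 21.4, 20.5 and 22.6 in SppsKO, and at 25.8, 26.0 and 25.3 in PhoKO. The 3 groups formed separate steps, with WT lowest and PhoKO highest. The difference from WT was 0.29 in SppsKO (SE 0.04, limma adjusted p = 0.00152) and 0.54 in PhoKO (SE 0.04, limma adjusted p = 3.46e-05). PhoKO exceeded SppsKO by 0.25 (SE 0.04, limma adjusted p = 0.00239). Each of these calls of ato was made in 21 of 21 fits, the alternatives included. The gene also acts outside the eye, in precursors of stretch-sensing chordotonal organs and in the optic lobe of the brain.

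The zinc-finger gene sens, which Atonal switches on to hold R8 fate, did not follow ato. Its WT libraries were at 3.92, 5.29 and 5.77 FPKM, those of SppsKO at 4.90, 3.84, 5.01 and 4.55, and those of PhoKO at 5.80, 4.97 and 4.68. The 3 groups overlapped throughout, and WT alone spanned nearly the whole range. The difference from WT was -0.10 in SppsKO (95% interval -0.37 to 0.18, limma adjusted p = 0.69) and 0.05 in PhoKO (95% interval -0.25 to 0.34, limma adjusted p = 0.885). The difference of ato in the same comparison lies above the upper end of the sens interval in both mutants. Outside the eye sens marks sensory organ precursors of the other discs.

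The R8 ligand gene boss was close to the lower limit of these data. It was at 0.459, 0.566 and 0.315 FPKM in WT, 0.523, 0.601, 0.678 and 0.660 in SppsKO, and 1.00, 0.859 and 0.937 in PhoKO. All PhoKO values lay above all others, while SppsKO and WT overlapped. The PhoKO mean was 2.09 times the WT mean and 1.51 times the SppsKO mean. In a fit without the filter, the difference between PhoKO and WT was 0.42 (SE 0.08, limma adjusted p = 0.0173), that between SppsKO and WT 0.16 (SE 0.08, limma adjusted p = 0.284), and that between PhoKO and SppsKO 0.26 (SE 0.08, limma adjusted p = 0.0692). On the log2 scale the PhoKO difference of boss is set by the added constant, and it was 0.94 with a constant of 0.1 and 0.12 with a constant of 5.

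Among the genes of photoreceptors in general, gl, which encodes the zinc-finger factor Glass needed by every photoreceptor to differentiate, had the largest difference of the 8 tested genes between PhoKO and WT. It was at 12.6, 13.8 and 15.9 FPKM in WT, 16.4, 17.1, 18.0 and 17.1 in SppsKO, and 21.1, 21.5 and 23.8 in PhoKO. The groups did not overlap, although WT 3 came close to the lowest SppsKO library. The difference from WT was 0.62 in PhoKO (SE 0.08, limma adjusted p = 0.00112), or a mean 1.57 times that of WT. In SppsKO the difference was 0.27 (SE 0.07) and narrowly missed the threshold (limma adjusted p = 0.0532). Without WT 3, one of both shallow libraries and the highest WT value of gl, it was 0.35 and called (limma adjusted p = 0.0126), and without WT 1, the lowest, it was 0.20 and not called (limma adjusted p = 0.155). It was called in 4 of 21 fits. PhoKO exceeded SppsKO by 0.35 (SE 0.07, limma adjusted p = 0.0134).

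The gene chp encodes Chaoptin, a surface glycoprotein of photoreceptors that holds their light-gathering membranes together, and Glass is needed for its expression. Its levels were 5.87, 5.73 and 6.38 FPKM in WT, 7.23, 7.37, 7.42 and 7.16 in SppsKO, and 6.60, 6.33 and 8.25 in PhoKO. The SppsKO libraries sat close together above WT, while in PhoKO a single library, PhoKO 3, was high and PhoKO 2 fell within the WT range. Neither difference from WT was called, at 0.25 in SppsKO (SE 0.08, limma adjusted p = 0.0948) and 0.20 in PhoKO (SE 0.09, limma adjusted p = 0.201). Between the mutants chp differed by -0.05 (95% interval -0.23 to 0.13, limma adjusted p = 0.717), with overlap. The SppsKO difference of chp was called in 3 of 21 fits, among them those without PhoKO 3 and with only WT and SppsKO, and the PhoKO difference fell to 0.09 without PhoKO 3.

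The homeobox gene ro (rough), which sets R2/R5 fate and helps confine ato to single R8 cells, was called in opposite directions in the mutants, lower in SppsKO and higher in PhoKO. It was at 2.94, 3.23 and 2.95 FPKM in WT, 2.15, 1.95, 2.46 and 2.12 in SppsKO, and 5.04, 3.83 and 4.37 in PhoKO. The 3 groups did not overlap, with SppsKO lowest and PhoKO highest. The PhoKO mean was 2.03 times the SppsKO mean, a difference of 0.77 (SE 0.09, limma adjusted p = 0.00076), which was called in 20 of the 20 fits that tested ro. The calls against WT were less firm. The SppsKO difference of -0.35 (SE 0.09, limma adjusted p = 0.0494) was called in 7 of 20 fits, and the PhoKO difference of 0.42 (SE 0.10, limma adjusted p = 0.0314) in 11 of 20. Under quantile normalization the SppsKO difference was -0.17 (limma adjusted p = 0.274). Leaving out any 1 WT or any 1 SppsKO library ended the SppsKO call (limma adjusted p between 0.0591 and 0.127), as did leaving out PhoKO 3 (limma adjusted p = 0.0683). The PhoKO call ended without WT 1, WT 2, WT 3, SppsKO 1, PhoKO 1 or PhoKO 3 (limma adjusted p up to 0.0947), and without both shallow libraries (limma adjusted p = 0.139). In the current annotation ro overlaps the gene CG5500, and the strand setting of the counting is not given in the sources used here, so fragments of this pair may be mixed. CG5500 was called lower in PhoKO (-0.32, SE 0.07, limma adjusted p = 0.0231), opposite to ro.

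The receptor tyrosine kinase gene sev, which is needed in R7 and is also expressed in other cells of the cluster, was higher in PhoKO than in either other group. Its levels were 9.12, 9.13 and 10.1 FPKM in WT, 9.63, 9.18, 9.16 and 9.27 in SppsKO, and 10.9, 10.8 and 11.6 in PhoKO. SppsKO lay inside the WT range, and PhoKO lay above both. The difference from WT was 0.21 in PhoKO (SE 0.05, limma adjusted p = 0.0373) and -0.02 in SppsKO (95% interval -0.13 to 0.09, limma adjusted p = 0.861), and PhoKO exceeded SppsKO by 0.23 (SE 0.05, limma adjusted p = 0.0154). The call against WT was made in 11 of 21 fits, and was lost when any 1 library other than WT 3 and SppsKO 4 was left out (limma adjusted p up to 0.119). The call against SppsKO was made in 18 of 21 fits, with limma adjusted p = 0.0938 under quantile normalization and 0.0533 without PhoKO 3. The receptor and its ligand gene thus both stood highest in PhoKO.

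The Bar genes B-H1 and B-H2, neighbouring homeobox genes with 0 protein-coding genes between them in the current annotation, specify R1/R6 and also pattern the distal leg, the notum and parts of the brain. The levels of B-H1 were 8.44, 9.58 and 8.50 FPKM in WT, 9.23, 8.86, 9.60 and 8.86 in SppsKO, and 8.45, 8.96 and 9.80 in PhoKO. Those of B-H2 were 6.92, 8.73 and 6.68 FPKM in WT, 7.54, 6.96, 7.94 and 7.57 in SppsKO, and 6.92, 7.21 and 8.01 in PhoKO. All groups overlapped for both genes, and the largest of their 6 differences was 0.04. The 95% interval of the PhoKO difference from WT was -0.12 to 0.19 for B-H1 and -0.22 to 0.21 for B-H2, so a rise of B-H1 or B-H2 as large as that of ato or gl in PhoKO lies outside them. In SppsKO the intervals were -0.10 to 0.19 and -0.18 to 0.22. The pair moved together from library to library: the correlation of their log2 values was 0.886 over the 10 libraries and 0.909 after the group means were taken out, a description of libraries that share preparation and scaling. The FPKM ratio of B-H1 to B-H2 was 1.20 ± 0.0899 in WT (SD, n = 3), 1.22 ± 0.0422 in SppsKO (SD, n = 4) and 1.23 ± 0.0115 in PhoKO (SD, n = 3). They are paralogs, so fragments of shared stretches may be split between them.

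Ratios within a library show whether the genes changed unequally. Each of the other 8 genes was set against gl, as log2((FPKM + 1)/(gl FPKM + 1)). Because gl itself differed from WT by 0.62 in PhoKO, a gene that did not change there also has a lower ratio. B-H1 and B-H2, for example, differed from WT by only 0.03 and -0.004 in PhoKO. In PhoKO versus WT the ratios of sens, sev, chp, B-H1 and B-H2 to gl were lower without overlap, by 0.41 (sev) to 0.62 (B-H2), while those of ato, ro and boss overlapped. In SppsKO versus WT those of ro, sens and sev were lower without overlap, with mean ratios of ro to gl of -2.52 in SppsKO and -1.90 in WT. There gl itself differed from WT by 0.27, ro by -0.35, sens by -0.10 and sev by -0.02. The ratio of ato to gl differed from WT by 0.02 in SppsKO and -0.07 in PhoKO, both with overlap. Over 24 ratios tested by an exact two-sided permutation test, 0 passed after Benjamini-Hochberg adjustment (lowest adjusted p = 0.196) and 0 at an unadjusted p under 0.05, in a design whose smallest p is 0.1 for 3 libraries against 3 and 0.0571 for 4 against 3. As plain FPKM, ro stood at 0.176 ± 0.0117 of the ato level in WT (SD, n = 3), 0.102 ± 0.0128 in SppsKO (SD, n = 4) and 0.172 ± 0.0241 in PhoKO (SD, n = 3), so that SppsKO was apart from the other groups and these overlapped. With the mean of eya and so as the denominator, the ratio of ato was 0.15 higher in PhoKO than in WT rather than lower, and that of ro 0.02 higher.

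**Figure D3:**
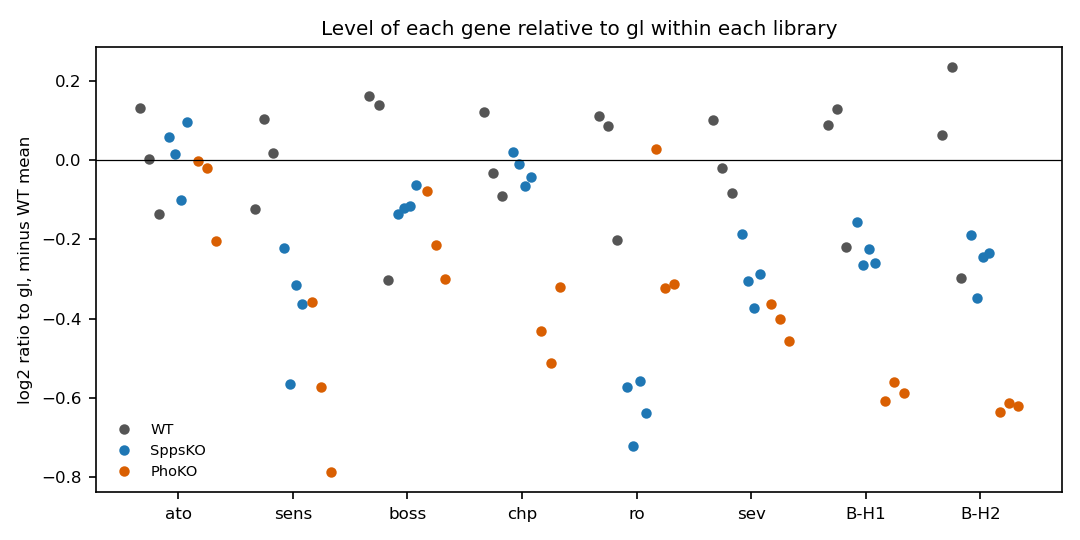
Log2 ratio of each gene to gl in every library, with the WT mean of the gene subtracted, so that 0 is the WT mean. The SppsKO libraries lie below all others for ro and the PhoKO libraries below all others for chp, B-H1 and B-H2, while the groups overlap for ato.

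Genes of the surrounding steps were counted from lists chosen by function. The lists here and below were drawn up with earlier results of these data known, so their counts are a description only. Over all tested genes limma called 4.59% higher and 5.08% lower in PhoKO versus WT, and 3.92% and 4.26% in SppsKO versus WT. Of 13 retinal determination genes, which make the disc an eye, 6 were called higher and 0 lower in PhoKO versus WT, with a median difference of 0.26. They included dan (0.49, SE 0.06, limma adjusted p = 0.000647), which encodes a nuclear factor of eye development, and danr (0.41, SE 0.05), beside eya (0.42, SE 0.05) and so (0.36, SE 0.05). In SppsKO dan was the 1 member of that list called (0.35, SE 0.05, limma adjusted p = 0.00342). Of 14 genes of furrow movement and R8 selection 3 were called higher in PhoKO and 0 lower: h, a repressor ahead of the furrow (0.19, SE 0.04), rho, which frees an EGF receptor ligand (0.21, SE 0.05), and aos, a secreted inhibitor of that receptor (0.24, SE 0.06). Of 17 genes of the Sevenless and Ras signal in R7, PhoKO had 3 called higher and 0 lower, namely aop, which represses photoreceptor fate (0.33, SE 0.06), phyl, which relieves the block on R7 fate (0.29, SE 0.06), and pnt, a target factor of the Ras signal (0.20, SE 0.05). The median difference in PhoKO versus WT was 0.01 over the furrow and R8 list and -0.03 over the Sevenless and Ras list. Their summed PhoKO levels were 102% and 101% of WT. Between the mutants the furrow list had 3 genes called higher and 3 lower in PhoKO, and the Sevenless list 2 and 1. Over all tested genes 7.24% were called higher and 7.12% lower in that comparison. In SppsKO versus WT limma called 0 genes of either of these last lists. There 2 of each had an unadjusted p under 0.05, beside 24.2% of all tested genes. The summed level of the retinal determination genes ran from 368 to 384 FPKM in WT, from 372 to 404 in SppsKO and from 407 to 424 in PhoKO, where it lay above both.

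Later steps were counted in the same way. Of all tested genes limma called 9.66% in PhoKO versus WT, 8.18% in SppsKO versus WT and 14.4% between the mutants. At an unadjusted p under 0.05 the shares were 23.7%, 24.2% and 30.8% in the same order. Of 14 factors of photoreceptor and cone subtypes limma called 0 in any of the 3 comparisons, with 1 at an unadjusted p under 0.05 in PhoKO versus WT and 2 in each of the others. The highest were pros, of R7 and cone cells, at 66.0, 55.8 and 68.0 FPKM in WT, SppsKO and PhoKO, and salr, at 25.3, 26.5 and 25.8. Of 24 phototransduction and rhabdomere genes 13 stayed under 1 FPKM in every library, the opsin genes ninaE and Rh3 among them at means of 0.0189 and 0.0316 FPKM. Of the 11 tested, inaC, which encodes an eye protein kinase C, was called higher in PhoKO (0.40, SE 0.11, limma adjusted p = 0.0452), from 2.09 to 3.08 FPKM. Between the mutants 2 of the 11 were called higher in PhoKO, inaC (0.40, SE 0.10) and rdgB (0.28), and 1 lower. This was the opsin gene Rh5, at 1.05, 1.08 and 0.568 FPKM in WT, SppsKO and PhoKO (-0.41 against SppsKO, SE 0.10, limma adjusted p = 0.0268). Its difference between PhoKO and WT was -0.39 and was not called (SE 0.11, limma adjusted p = 0.0514).

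Markers of tissues where these genes act outside the eye were counted as well. As background, limma called 4.59% of all tested genes higher and 5.08% lower in PhoKO versus WT, and 3.92% and 4.26% in SppsKO versus WT. At an unadjusted p under 0.05 the shares were 23.7% in PhoKO versus WT, 24.2% in SppsKO versus WT and 30.8% between the mutants. Of 6 tested genes of sensory organ precursors, where sens also acts, limma called 0 in any comparison, with 0 at an unadjusted p under 0.05 in either mutant against WT and 1 between the mutants. Their achaete-scute gene ac was at 17.0, 17.7 and 16.6 FPKM in WT, SppsKO and PhoKO. Of 8 distal leg genes, the other main disc site of B-H1 and B-H2, 1 was called higher and 3 lower in PhoKO, with ss at 0.68 (SE 0.09) and Lim1 at -0.24 (SE 0.04). In SppsKO 0 of these were called higher and 1 lower, ap (-0.32, SE 0.07). Wing and notum markers had 0 limma calls in PhoKO (1 of 8 at an unadjusted p under 0.05), and in SppsKO 1 higher and 1 lower of 8. Neuron markers had 0 limma calls of 10 in either mutant against WT (2 in SppsKO and 1 in PhoKO at an unadjusted p under 0.05), with elav, which photoreceptors also express, at 60.9, 61.7 and 63.2 FPKM. Glia markers, of which the eye disc and brain both hold cells, were called higher in PhoKO for 6 of 10, with nrv2 at 0.41 (SE 0.04) and repo at 0.33 (SE 0.06), and neuroblast markers for 3 of 7, with insc at 0.47 (SE 0.09). In SppsKO 1 glia marker was called higher, gcm (0.40, SE 0.06), which was also called in PhoKO (0.28, SE 0.07), and 0 neuroblast markers were called. The summed glia markers ranged from 307 to 314 FPKM in WT and from 351 to 378 in PhoKO, with SppsKO at 304 to 317. Those of neuroblasts ranged from 252 to 269 FPKM in WT and from 276 to 285 in PhoKO, with SppsKO at 244 to 266. Hemocyte markers were lower for 8 of 10 in SppsKO, where their sum ranged from 76.6 to 133 FPKM against 212 to 350 in WT and 188 to 286 in PhoKO. In PhoKO versus WT 1 hemocyte marker was called higher, NimC1 (1.64, SE 0.16), and 0 lower. Of the markers of tissue that may cling to discs, limma called 0 of 8 muscle and 0 of 6 fat body genes in either mutant against WT (1 of each in SppsKO and 0 in PhoKO at an unadjusted p under 0.05). It called Sgs4 of 6 salivary gland genes lower in PhoKO and 3 of 8 ring gland genes lower in SppsKO. The summed salivary gland genes were at 19.4% of WT in PhoKO and 38.4% in SppsKO, with a wide spread. They ranged from 814 to 6336 FPKM in WT, from 282 to 3022 in SppsKO and from 79.5 to 1461 in PhoKO. Between the mutants 8 of 10 hemocyte and 6 of 10 glia markers were called higher in PhoKO and 0 lower. So were 5 of 8 ring gland and 4 of 7 neuroblast markers, again with 0 lower. Of all tested genes 7.24% were called higher and 7.12% lower there. Distal leg genes had 3 higher and 2 lower, wing and notum genes 1 and 0, salivary gland genes 0 and 1. Neuron, muscle and fat body genes had 0 calls there. At an unadjusted p under 0.05 they had 4 of 10, 6 of 8 and 1 of 6. No list had a marker at 0 in every library. The part of these shifts in the photoreceptor gene differences was not tested.

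The sum over the 9 photoreceptor genes ran from 67.4 to 74.4 FPKM in WT, from 77.3 to 80.8 in SppsKO and from 90.5 to 96.7 in PhoKO, without overlap. The PhoKO mean of that sum was 130% of WT, beside 110% for the 13 retinal determination genes. In SppsKO the figures were 110% and 104%. Such sums are weighted by the most abundant genes of a list. Per gene the order was the other way. The median difference in PhoKO versus WT was 0.20 over the 8 tested photoreceptor genes and 0.26 over the retinal determination genes. No test compared these lists.

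**Figure D4:**
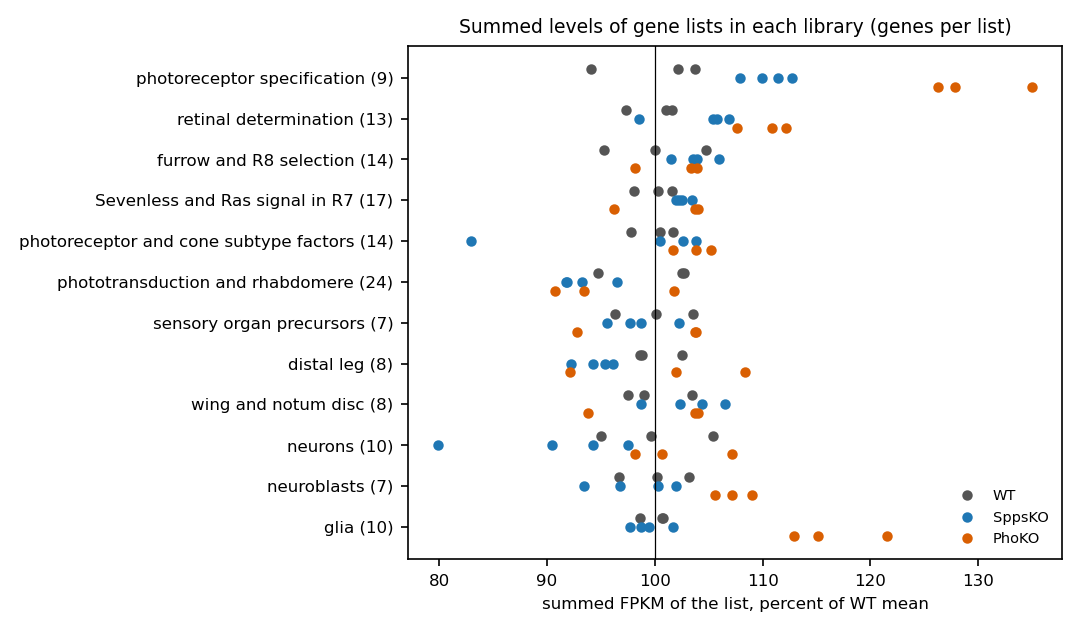
Summed FPKM of each gene list in every library, as a percentage of the WT mean of that list, with the number of genes in brackets. In the plot the PhoKO libraries lie above all WT and SppsKO libraries for the photoreceptor, retinal determination, neuroblast and glia lists.

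For each of the 9 genes, the genes with the most similar profile over the 10 libraries were taken as those with the highest Pearson correlation of log2(FPKM + 1). The search covered 4838 genes. Because the libraries form 3 groups and were pooled for sequencing, such correlations follow the group means first and are a description only. The closest to ato were Cyp6a17, a cytochrome P450 gene (r = 0.98) at 0.0616, 3.55 and 13.7 FPKM in WT, SppsKO and PhoKO, miple, a growth factor gene (r = 0.961), and the eye gene dan (r = 0.956), all stepping up from WT through SppsKO to PhoKO. The closest to gl were retn, a DNA-binding factor gene (r = 0.974), Mmp2, a matrix metalloproteinase gene (r = 0.971), and MCPH1 (r = 0.953). The closest to ro was the lamin gene LamC (r = 0.957), at 18.4 FPKM in WT, 14.5 in SppsKO and 27.6 in PhoKO, followed by luna (r = 0.948) and Cct1 (r = 0.945). For sev they were Plod (r = 0.958), the eye kinase gene inaC (r = 0.947) and the cell death gene rpr (r = 0.944), and for boss l(1)G0156 (r = 0.958), rau, which prolongs receptor tyrosine kinase signals (r = 0.944), and Spindly (r = 0.943).

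Of the remaining genes, B-H1 was closest to Eip63E (r = 0.95), emc (r = 0.897) and sano (r = 0.896), and B-H2 to Patr-1 (r = 0.972), Khc (r = 0.948) and Pli (r = 0.945). The profile of chp was closest to mbt (r = 0.869), D1 (r = 0.849) and Moca-cyp (r = 0.844), and that of sens to pgant6 (r = 0.826), Mob2 (r = 0.823) and Nab2 (r = 0.812). Among the 9 genes themselves the closest pair was ato and gl, with r = 0.925 over the 10 libraries. After group means were taken out the same pair had r = 0.0548, while gl kept 0.72 with sev and 0.688 with chp.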

How the data were processed

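The authors deposited FPKM per gene, normalized across libraries, per the file headers, which have the layout of a Cufflinks or Cuffnorm table. Per the submitters' processing notes, the RNA-Seq and ChIP-Seq work named the aligners TopHat2 2.1.1 and Bowtie 1.1.2, the quantifiers Cuffnorm, Cufflinks and HTSeq, and DESeq2, with builds BDGP5 and dm3. Which of them made these values, from which annotation and with which strand setting, is not given in the sources used here. Per the labels' protocols, 12 stranded poly(A) libraries were pooled for sequencing, of which 10 were analysed here.

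FPKM are not counts, so log2(FPKM + 1) of genes at 1 FPKM or more in at least 3 libraries was fitted with limma 3.58.1 in R 4.3.3 (trend and robust; all 10 libraries in 1 model; no covariate; Benjamini-Hochberg over 9748 genes; threshold 0.05). The fit was tested on simulated data. Permutation tests used scipy 1.17.1. Alternatives were other pseudocounts (0.1 and 5), filters, scalings, 2-group fits, a replicate block, a prior without trend or robust fitting, and leaving out libraries. Shared replicate numbers are not known to pair libraries.

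Genes named beyond the 9 followed a rule: up to 4 called genes of a list by adjusted p, otherwise the 2 with the highest mean, and the 3 most correlated tested genes at a mean of 2 FPKM or more, bare CG and CR numbers aside. The 9 genes, the lists and the tests were chosen with earlier results of these data known. Of the table's symbols 16299 matched the Release 6 plus ISO1 MT annotation, used only for names and gene order. Outside that rule, CG5500 and the neighbouring genes were chosen by position, and Spps, pho and the opsin genes ninaE and Rh3 were named directly.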

Additional observations from a re-analysis of the deposited data

How the results depend on the processing

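Across 20 alternatives the calls of ato in all 3 comparisons, of gl in PhoKO against either other group, and of ro in PhoKO versus SppsKO were made each time; ro was not tested under a mean of 5 FPKM. Genes called in SppsKO versus WT numbered 797, but 449 with the replicate block and 508 to 842 when 1 library was left out (508 without SppsKO 2). Those in PhoKO versus WT numbered 942, but 471 with the 2 groups alone and 566 to 1112 with 1 left out (566 without WT 1, 593 without PhoKO 2). Those in PhoKO versus SppsKO numbered 1400, but 753 with the block and 848 to 1673 with 1 left out (848 without SppsKO 2, 860 without PhoKO 1, 872 without PhoKO 2). Of the photoreceptor genes, SppsKO versus WT had 2 calls, but 1 with a pseudocount of 5, with no filter and at a mean of 5 FPKM, and 1 to 2 with 1 library left out. It had 3, all higher, under quantile normalization, and 3 with the 2 groups alone (2 higher, 1 lower). The main split of 1 higher and 1 lower thus was not kept throughout. PhoKO versus WT had 4 calls, but 2 with the 2 groups alone, 2 with the block and 2 to 4 with 1 left out. PhoKO versus SppsKO had 4, and 3 to 4 with 1 left out. The cause of these shifts was not tested.

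Same-numbered libraries share only a number: the correlation of their deviations ran from -0.377 to 0.11 over 9 pairs. The block takes up SppsKO 4, whose number no other group has. Under it gl was called in SppsKO versus WT (limma adjusted p = 0.0314) and ro was not (limma adjusted p = 0.162), so that 2 genes were called higher and 0 lower; ro (0.0799) and sev (0.0763) were not called in PhoKO versus WT, nor sev (0.0608) between the mutants. Quantile normalization moved the share of calls that were higher from 47.9% to 67.1% in SppsKO versus WT (625 higher and 307 lower) and from 50.4% to 39.0% between the mutants (523 and 819), and the median gene by under 0.1.

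Differences that changed sign were all uncalled. In SppsKO versus WT, sens was 0.064 and sev 0.080 under quantile normalization. Without both shallow libraries sev was 0.026 and B-H2 -0.048, and with 1 library left out they ran from -0.040 to 0.026 and from -0.048 to 0.12. In PhoKO versus WT, B-H2 was 0.013 under quantile normalization, and with 1 left out sens ran from -0.090 to 0.14, B-H1 from -0.018 to 0.087 and B-H2 from -0.069 to 0.10. Between the mutants, B-H1 was 0.033 and B-H2 0.018 without both shallow libraries, and with 1 left out chp ran from -0.15 to 0.015, B-H1 from -0.062 to 0.033 and B-H2 from -0.075 to 0.018. With a pseudocount of 0.1 the ratio of boss to gl differed from WT by 0.12 in SppsKO and 0.29 in PhoKO, and between the mutants by 0.17. With eya and so as the denominator the PhoKO versus WT ratios of ato, ro and boss were 0.15, 0.022 and 0.027, and the SppsKO versus WT ratios of boss and chp 0.069 and 0.15. With 1 left out the SppsKO versus WT ratio of ato ran from -0.050 to 0.085 and that of chp from -0.068 to 0.039.

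Depth in fragments is unknown, which leaves boss without a counting error.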

Other observations

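The genes that flank the 9 photoreceptor genes were called at about the background share. Of 32 flanking protein-coding genes, up to 2 on each side in the order of the current annotation, 27 were tested. In PhoKO versus WT limma called 0 of them higher and 2 lower, and in SppsKO versus WT 1 higher and 1 lower, or 7.41% in each case beside 9.66% and 8.18% of all tested genes. Between the mutants it called 2 higher and 3 lower in PhoKO, or 18.5% beside 14.4%. The neighbour of chp, CG1544, was lower in both mutants, with a difference of -0.65 in SppsKO (SE 0.09, limma adjusted p = 0.00201) and -1.46 in PhoKO (SE 0.10, limma adjusted p = 1.53e-05), while chp itself was not called. Next to gl, CG7675 was called higher in SppsKO (0.44, SE 0.11, limma adjusted p = 0.0442) and not in PhoKO (-0.06, SE 0.12, limma adjusted p = 0.807), the mutant in which gl was called. The 3 tested flanking genes of ato were called in neither mutant against WT. The antisense RNA gene CR44358, which overlaps sev, had means of 0.15 FPKM in WT and 0.0587 in SppsKO and was listed at 0 in PhoKO.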
